A study of Saccharomyces cerevisiae with 6 samples.

Results

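The longest leaders in a pool of budding yeast (Saccharomyces cerevisiae) RNAs were those within 5 nucleotides (nt) of 110 nt. The number that ends the name of each RNA was read as the length of its leader, and leaders are named here by gene and length, as in DEF1_110. They comprised 260 of 6962 RNAs (3.73%), 1 for each of 260 genes. For 92 of these genes the pool held no other leader, and for 168 it also held a shorter one. The RNAs were transcribed from a synthetic pool with T7 RNA polymerase, capped and incubated in a yeast translation extract, and the extract was separated on a sucrose gradient. The tested fractions were the RNA bound by 80S ribosomes (3 libraries), named 80S here, and the untranslated RNA (2 libraries). Both were extracted with phenol and chloroform and pulled down through biotin. The input RNA (1 library) was the pool itself, and the pulldown entry of its label names the phenol and chloroform step alone, so a fraction and the input may also differ by the pulldown. No intact yeast cells were assayed. Separate extracts are not named for the replicates in the labels, so the p-values rest on a spread between libraries that may be purely technical.

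The leader is the stretch of an mRNA before its start codon. A small ribosomal subunit joins the mRNA near the capped 5′ end, scans the leader for a start codon and is then joined by the large subunit, which makes an 80S ribosome. A long leader must be scanned over a longer distance and has more room for upstream start codons (ATG in DNA letters) and for stretches of biased base composition.

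Of the 260 leaders, 252 received a sequence from the yeast reference genome R64 (RefSeq), as the stretch of that length before the annotated start codon. Their first base was A in 76.2%, and the base just before it was a pyrimidine in 94.8%, against 78.3% and 96.2% of all leaders with a sequence. The synthesised RNAs may differ from the reference, and the other 8 were not analysed for sequence here. The 4 largest falls and the 4 largest rises of 80S against untranslated RNA among leaders with a sequence are shown by their first 30 bases, since cytosine content at the 5′ end followed this difference most closely of the sequence features examined. Sequences are written 5′ to 3′ in the sense of the RNA, with cytosines in capitals. DEF1 (chrXI:338834-338863, minus strand), ASM4 (chrIV:300088-300117, minus), CCC2 (chrIV:1005566-1005595, plus) and CDC73 (chrXII:958171-958200, minus) fell. ARV1 (chrXII:623963-623992, minus), FAD1 (chrIV:373689-373718, minus), YPS7 (chrIV:1174252-1174281, minus) and HOM6 (chrX:690607-690636, minus) rose.
DEF1: aagaaaaaCtCttaCCaattaCCCCaaaaa
ASM4: atagtttatttCCCgataaggtagaCatat
CCC2: atggattagaCtttaattCtgCCtggtaCt
CDC73: aaCgaatattCCaCCCtttttCaaattgCg
ARV1: aatggCataaatCaagCtgagaaattCttg
FAD1: gaaaaatCttCgaaagattttgttgaCtga
YPS7: atatCagttgCattagaCtaatCgttCtag
HOM6: gtaaatattgCggttagCgatagaCaattt

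These stretches hold 8 cytosines in DEF1, 4 in ASM4, 5 in CCC2 and 8 in CDC73, and 4 in ARV1, 3 in FAD1, 5 in YPS7 and 3 in HOM6, so single leaders of the 2 directions overlap. For genes with leaders of different lengths, the bases that only the longer one holds are shown for those of the 8 highest and 8 lowest pair differences whose leaders start at most 30 nt apart. These are FPT1 (FPT1_108 against FPT1_92, chrXI:462789-462804, minus), SHC1 (SHC1_111 against SHC1_99, chrV:351587-351598, plus) and CUS2 (CUS2_106 against CUS2_92, chrXIV:95117-95130, plus), in which the long leader was relatively higher in 80S, and CCC2 (CCC2_109 against CCC2_87, chrIV:1005566-1005587, plus), in which it was lower.
FPT1: ataattaaagagattt
SHC1: gaataaaaaatt
CUS2: aaaaaaaaagCaCt
CCC2: atggattagaCtttaattCtgC

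The added bases hold no cytosine in FPT1 and SHC1, 2 in CUS2 and 3 in CCC2. The first 30 bases of both leaders are shown for AIM4 (AIM4_109, chrII:609929-609958, plus, and AIM4_69, chrII:609969-609998, plus), whose long leader was relatively higher in 80S, and for HOM3 (HOM3_110, chrV:258039-258068, minus, and HOM3_64, chrV:257993-258022, minus), whose long leader was relatively lower. In both genes the shorter leader starts with more cytosines, so they stand on opposite sides of the relation described for the pairs.
AIM4_109: aaatttttttgattattttCaaatatCaag
AIM4_69: aCCttCaaagtCatCCaatCCttttagttC
HOM3_110: agtgCtCtaCtCattgaaggatatttgtgt
HOM3_64: atCgCttaagCtCaCatagCtatCgCattt

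Upstream start codons, in capitals, are shown within 30 bases of 4 leaders that rose, GPX1 (chrXI:389965-389994, minus), INO2 (chrIV:699471-699500, minus), RRN9 (chrXIII:806506-806535, minus) and AAC3 (chrII:415875-415904, plus).
GPX1: aATGtacaaatatattttagtcATGtaggt
INO2: ataaataaatacATGgaacagcaaaggaga
RRN9: attgATGtgtcggcggttttttctctctag
AAC3: aagtgcgcttgaATGatttcagatagaaag

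In GPX1 the first ATG starts at base 2 of the leader and its frame is closed after 8 codons. In ARV1, shown above, it starts at base 2 too and is followed by a stop after 2 codons. In RRN9 the frame is closed after 15 codons and in AAC3 after 11, whereas the ATG of INO2, at base 86, is in another frame with no stop before the start codon. Leaders that fell hold upstream start codons too, as CCC2 does at base 1 of the stretch shown above and MPS1 at base 98.

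Abundance was deposited as FPKM, by name fragments scaled to a length and to the mapped reads of a library. Which length was used is not given, and the lowest input value did not vary with leader length, as described below. None of the 260 leaders was at 0 in any library, and their values ran between 47.8 and 59032 FPKM. Their median was 1925, 2150 and 1952 FPKM in the 80S libraries, 2156 and 2275 FPKM in the untranslated libraries and 2527 FPKM in the input. Over all RNAs it was 2265, 2149 and 2191 FPKM in 80S, 2098 and 2049 FPKM in untranslated and 3112 FPKM in the input. The long leaders took 3.48, 3.66 and 3.55% of the summed FPKM in 80S, 3.85 and 4.06% in untranslated and 3.20% in the input. Their share was thus lowest in the input and highest in the untranslated libraries, with no overlap between the groups. These sums lean on single abundant RNAs. YLR286W-A_112 alone had 59032 and 58953 FPKM in untranslated, against 6286, 5602 and 5793 FPKM in 80S and 30910 FPKM in the input. The shares without it were not computed, so the lack of overlap may not hold for the other leaders. Read depth is unknown. Because FPKM are scaled within a library, the value of one RNA depends on the others.

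The lowest and the highest inputs show how unevenly the long leaders stood in the starting pool. VHR1_114, a transcription factor of the biotin pathway, had 47.8 FPKM in the input, SLX8_115, of a SUMO-targeted ubiquitin ligase, 71.7 FPKM, and YOR131C_105, annotated as a putative hydrolase, 95.6 FPKM. The highest inputs were 30910 FPKM for YLR286W-A_112, 25666 FPKM for GPC1_111 (a glycerophosphocholine acyltransferase) and 24218 FPKM for YKL162C_109 (annotated as an arginine methyltransferase). The lowest input value anywhere in the pool, 23.9 FPKM, was shared by 12 RNAs with leaders of 13 to 102 nt. VHR1 and SLX8 were thus only a few steps above it, and 8 of the 260 leaders had an input under 10 such steps (239 FPKM).

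For 80S against untranslated RNA, 87 of the 260 long leaders rose (33.5%) and 99 fell (38.1%), by limma on log2(FPKM + 1) with Benjamini-Hochberg adjustment at 0.05. Over all RNAs, 38.6% rose and 31.8% fell, and 70.4% were called in either direction, against 71.5% of the long leaders. Changes of at least 4-fold were called for 13 rises (5%) and 37 falls (14.2%), against 7.91% and 9.62% of all RNAs. The median log2 difference was -0.18 for the long leaders and 0.18 for all RNAs. The 3 80S libraries lay on one side of both untranslated libraries for 207 long leaders (79.6%), and this held for 79.5% of all RNAs.

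The median was highest for the shortest leaders, differed little between the classes from 18 to 89 nt and was lower for the longest. It was 0.30 for leaders of 13 to 17 nt, 0.21 for 18 to 29 nt, 0.18 for 30 to 44 nt, 0.20 for 45 to 59 nt, 0.17 for 60 to 74 nt, 0.16 for 75 to 89 nt, 0.05 for the class that starts at 90 nt and -0.18 for the longest leaders. The spread within a class was far wider than these steps, with an SD of 1.46 on the log2 scale among the long leaders. Among the longest leaders, length itself was unrelated to the difference (Pearson's r = -0.01 over 252 leaders), and the median ran between -0.67 at 114 nt (22 leaders) and 1.16 at 111 nt (21 leaders).
On both sides of the length limit the values spread widely in both directions. At the shortest length of the class they ran between -3.11 (CDC73_105) and 3.05 (YPS7_105), and 1 nt below it between -3.33 (ARP1_104, an actin-related subunit of dynactin) and 2.24 (ASA1_104).

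The largest falls belonged to genes of unlike function. DEF1_110, which promotes degradation of stalled RNA polymerase II, had 853, 673 and 597 FPKM in 80S, against 7260 and 9265 FPKM in untranslated and 3530 FPKM in the input. Every 80S library was below the input and both untranslated libraries were above it. The log2 difference was -3.55 ± 0.23 (SE), an 11.7-fold fall (adjusted p = 1.28e-05, limma with Benjamini-Hochberg adjustment).
ASM4_114, a protein of the nuclear pore, had 1630, 1782 and 1926 FPKM in 80S, against 15351 and 28079 FPKM in untranslated and 5008 FPKM in the input. The log2 difference was -3.55 ± 0.26 (SE; adjusted p = 1.64e-05, limma with Benjamini-Hochberg adjustment). CCC2_109, a copper pump of the Golgi, had 1241, 1378 and 960 FPKM in 80S, against 11520 and 15909 FPKM in untranslated and 2580 FPKM in the input. In both, as in DEF1, no 80S library came near an untranslated one.

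CDC73_105, whose product belongs to the Paf1 complex of transcription, showed a different pattern. It had 797, 987 and 808 FPKM in 80S, against 7194 and 7653 FPKM in untranslated and 826 FPKM in the input. The 80S libraries lay around the input, and only the untranslated ones stood apart. HEL1_107, a ubiquitin ligase, had 919, 981 and 1013 FPKM in 80S, against 7447 and 6901 FPKM in untranslated and 1294 FPKM in the input, so that only the untranslated libraries were above the input.
The prolyl-tRNA synthetase gene YHR020W_108 showed the reverse arrangement. It had 675, 650 and 684 FPKM in 80S, against 5479 and 3925 FPKM in untranslated and 4147 FPKM in the input. Here the untranslated libraries lay on both sides of the input and the 80S libraries far below it. The other 6 of the 12 largest falls, with log2 differences between -3.32 and -2.79, were YLR286W-A, the spindle checkpoint kinase gene MPS1, the transporter gene RTC2, the import receptor gene KAP123, the cell wall gene SCW4 and the SUMO protease gene ULP1. Of these, KAP123 had an input of 199 FPKM, under the 10 steps.

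Among the rises, ARV1_109, needed for sterol homeostasis, had 5464, 5713 and 7405 FPKM in 80S, against 1139 and 139 FPKM in untranslated and 7733 FPKM in the input. The 80S libraries were all below the input, and the untranslated ones were both far lower but unlike each other. The log2 difference was 3.94 ± 0.71 (SE; adjusted p = 0.00133, limma with Benjamini-Hochberg adjustment), and it was 5.45 without untranslated replicate 1 and 2.43 without untranslated replicate 2.
FAD1_110, which makes FAD, had 11088, 8494 and 9136 FPKM in 80S, against 908 and 1173 FPKM in untranslated and 4146 FPKM in the input. All 80S libraries exceeded the input and both untranslated ones fell short of it, and the log2 difference was 3.20 ± 0.20 (SE; adjusted p = 1.28e-05, limma with Benjamini-Hochberg adjustment). HOM6_112, the homoserine dehydrogenase of threonine and methionine synthesis, had 10291, 8896 and 9265 FPKM in 80S, against 1120 and 1459 FPKM in untranslated and 3420 FPKM in the input, again with the input between the fractions.

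YPS7_105, a putative aspartic protease of the cell surface, had 5124, 6445 and 8093 FPKM in 80S, against 1114 and 543 FPKM in untranslated and 9433 FPKM in the input. As in ARV1, no library exceeded the input. GPX1_111, a glutathione peroxidase, had 4018, 4871 and 4540 FPKM in 80S, against 678 and 932 FPKM in untranslated and 563 FPKM in the input, so that the input was the lowest library.
SWI5_111, a cell cycle transcription factor, had 13547, 15286 and 13451 FPKM in 80S, against 2492 and 3743 FPKM in untranslated and 5404 FPKM in the input. The remaining rises among the 12 largest, with log2 differences between 2.07 and 2.27, were RRN9 (a factor of RNA polymerase I), CNA1 (a catalytic subunit of calcineurin), BIR1 (the yeast survivin), AMD2 (a putative amidase), ARF3 (an Arf family GTPase) and MPF1. ARF3_108 had 1280, 252 and 477 FPKM in 80S, against 144 and 106 FPKM in untranslated and 841 FPKM in the input, and its log2 difference of 2.11 became 1.48 without 80S replicate 1. At the other end, GPT2, PAH1 and SER1, all of lipid or amino acid synthesis, had log2 differences of 0.01, 0.04 and 0.04, smaller than the replicate spread, and their sign changed under some settings.

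Both fractions were also compared with the input. For 80S against input, 58 long leaders rose and 72 fell (limma with Benjamini-Hochberg adjustment at 0.05), which is 50.0% called, against 53.3% of all RNAs, of which 20.1% rose and 33.2% fell. For untranslated against input, 70 rose and 62 fell, which is 50.8% called, against 51.8% of all RNAs, of which 17.4% rose and 34.4% fell. The balance of calls depended on scaling. After rescaling by median ratios, 83 rose and 61 fell for 80S against input, which moves the rises from 44.6 to 57.6% of the calls, and 92 rose and 35 fell for untranslated against input, which moves them from 53.0 to 72.4%. As deposited, the 80S libraries all lay on one side of the input for 236 long leaders (90.8%, against 89.1% of all RNAs), and the untranslated libraries for 216 (83.1%, against 88.4%).
Set beside all RNAs, which removes the scaling, the median log2 difference of the long leaders was 0.35 lower for 80S against untranslated (a difference of medians of -0.35), 0.13 higher for 80S against input and 0.40 higher for untranslated against input. The rescaling itself moved the median of all RNAs to 0.03 for 80S against untranslated, against 0.18 as deposited.
The median for untranslated against input ran over the length classes from -0.53 at 13 to 17 nt, -0.46, -0.49, -0.38, -0.27, -0.18 and -0.12 to 0.04 in the longest, and that for 80S against input was -0.39, -0.35, -0.34, -0.31, -0.18, -0.10, -0.03 and -0.12. Between the 2 longest classes, 80S against input was lower in the longer one and untranslated against input higher. These contrasts share libraries and so are not independent of one another.

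Of the 87 leaders that rose in 80S against untranslated, 40 (46.0%) also rose against the input, 39 (44.8%) were lower in untranslated than in the input and 7 (8.05%) were both. Over all RNAs that rose, these shares were 36.2, 58.8 and 9.04%. Of the 99 that fell, 52 (52.5%) fell against the input, 49 (49.5%) were higher in untranslated than in the input and 18 (18.2%) were both, against 65.5, 36.6 and 13.9% of all RNAs that fell. No contrast called 40 of the 260 (15.4%), against 13.8% of all RNAs.
The largest rises against the input came partly from leaders scarce in it. VBA4_109, a vacuolar membrane protein, had 1769, 2461 and 1710 FPKM in 80S and 1232 and 1271 FPKM in untranslated, against 119 FPKM in the input. Both fractions stood at least 10 times above the input, and VBA4 was among the 8 leaders under 10 input steps, as were YOR131C, NRT1 and VHR1. UBC8_109, a ubiquitin-conjugating enzyme, had 4483, 5992 and 3265 FPKM in 80S and 5345 and 7081 FPKM in untranslated, against 589 FPKM in the input. Both fractions were above the input and overlapped each other. PUP3_110, a subunit of the proteasome core, had 7702, 9790 and 7104 FPKM in 80S and 3203 and 5325 FPKM in untranslated, against 1108 FPKM in the input.

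Other leaders were abundant in the input and scarce in both fractions. YKL162C_109 had 3236, 1975 and 3316 FPKM in 80S and 8852 and 3467 FPKM in untranslated, against 24218 FPKM in the input. Its log2 difference of 80S against input was -3.13, the largest fall of a long leader in that contrast, while that of 80S against untranslated (adjusted p = 0.0483, limma with Benjamini-Hochberg adjustment) was -0.32 without untranslated replicate 1 and -1.68 without untranslated replicate 2. It was not called without 80S replicate 1, 80S replicate 2 or untranslated replicate 1. SOD2_105, the mitochondrial superoxide dismutase, had 237, 164 and 190 FPKM in 80S and 709 and 276 FPKM in untranslated, against 1295 FPKM in the input.
Its difference of 80S against untranslated, -1.18, was -0.50 without untranslated replicate 1 and -1.86 without untranslated replicate 2, and it was not called without 80S replicate 2, 80S replicate 3 or untranslated replicate 1. NAM9_106, a mitochondrial ribosomal protein, had 984, 1064 and 1696 FPKM in 80S and 11071 and 5116 FPKM in untranslated, against 9409 FPKM in the input. TOD6_115, a repressor of ribosome biogenesis genes, had 1123, 945 and 1402 FPKM in 80S and 8453 and 5849 FPKM in untranslated, against 7944 FPKM in the input. In NAM9 and TOD6 the untranslated libraries lay on both sides of the input and only the 80S libraries were low.

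Grouped by function, 82 of the long leaders belonged to at least 1 of 10 gene lists. The lists were written with earlier results of these data known, so their counts are descriptions, to be read against the 38.6% rises and 31.8% falls of all RNAs for 80S against untranslated. The lists do not hold every long leader of a function. Of 19 genes of carbon, amino acid, lipid and nucleotide metabolism, 4 rose and 9 fell, with a median log2 difference of -0.53. The falls included MET2 (-2.75), MET13 (-2.65) and MET14 (-2.50), all of methionine synthesis or sulfate assimilation, and HOM3 (-1.64), the aspartate kinase. HOM6, of the same route as HOM3, rose (2.89). The other falls were CPA1 (-2.30), ARO10 (-2.15), GLC3 (-0.88), TPS1 (-0.82) and IMD3 (-0.74). Of 11 genes of protein kinases and phosphatases, 2 rose and 4 fell (median -0.57), with MPS1 at -2.97 and CNA1 at 2.24.
Of 11 genes of protein folding, degradation and stress defence, 3 rose and 5 fell (median -0.59), from the ubiquitin ligase gene UFD4 (-2.31) and the polyubiquitin gene UBI4 (-1.36) to GPX1 (2.49) and ARV1 (3.94). Of 11 genes of the secretory pathway, endocytosis and vacuole, 4 rose and 4 fell (median -0.24), from SED5, the Golgi syntaxin (-2.31), to APL3, a subunit of the AP-2 adaptor (1.59).

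Of 10 genes of transcription factors and chromatin regulators, 5 rose and 3 fell (median 0.38), with RAP1, which binds telomeres and ribosomal protein gene promoters, at -2.10 and SWI5 at 2.20. Of 7 genes of mitochondrial respiration and the tricarboxylic acid cycle, 4 rose and 3 fell (median 1.13). The falls were COX4, IDH1 and COX11, and the rises AAC3, LSC2, QCR6 and SCO2. Of 8 cell wall and glycosylation genes, 2 rose and 3 fell (median 0.04), with SCW4 at -2.79 and YPS7 at 3.05. Of the 4 listed membrane transporter genes, 3 rose, ADY2 the most (1.89), and FUR4, the uracil permease, fell (-1.70). Outside this list, the copper pump gene CCC2 (-3.52) and the transporter gene RTC2 (-2.87) fell, and the iron carrier gene MRS3 rose (1.12). Of the 2 listed genes of translation, GCN3, a subunit of initiation factor eIF2B, rose (1.11). The other, TIF5, which encodes eIF5, had a log2 difference of -0.47 and was not called. Not listed were the prolyl-tRNA synthetase gene YHR020W (-2.79) and the mitochondrial ribosomal protein gene NAM9 (-2.63), which both fell.

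Upstream start codons were commoner in the long leaders, with an ATG in 68 of 252 (27.0%), against 14.2% of all leaders with a sequence. Of the 68, 26 rose and 22 fell in 80S against untranslated (38.2 and 32.4%), and their median log2 difference was 0.20. Of the 184 without one, 58 rose and 74 fell (31.5 and 40.2%), with a median of -0.26. The 47 leaders with a closed upstream frame and no overlapping one had a median of 0.37 (18 rose, 14 fell), and the 20 whose upstream frame ran past the start codon had a median of -0.09 (8 rose, 7 fell). An upstream ATG was therefore present at both ends of the range. Of the 12 largest rises, ARV1, GPX1, RRN9, AMD2 and BIR1 held at least 1, and of the 12 largest falls, CCC2 and MPS1, with YLR286W-A not analysed for sequence.

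Genes with upstream reading frames described in the literature gave 4 long leaders. ARV1 and INO2, whose product activates phospholipid synthesis genes, each hold an ATG, and LEU4 and CPA1 hold none in these leaders. INO2_105 had 12699, 3417 and 6378 FPKM in 80S, against 1489 and 1981 FPKM in untranslated and 11912 FPKM in the input. Its 80S libraries spread widely but all exceeded the untranslated ones (log2 difference 1.92). LEU4_110, of leucine synthesis, had 3051, 4213 and 3063 FPKM in 80S, against 1359 and 2224 FPKM in untranslated and 3199 FPKM in the input (log2 difference 0.97). CPA1_109, of arginine synthesis, had 456, 396 and 454 FPKM in 80S, against 1736 and 2655 FPKM in untranslated and 1731 FPKM in the input (log2 difference -2.30), and its leader overlaps the annotated reading frame YOR302W on the same strand.

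Cytosine was the base whose share followed the 80S to untranslated difference most closely. Pearson's r between the cytosine share of the whole leader and the log2 difference was -0.40 over the 252 leaders, and -0.41 over all 6860 leaders with a sequence. It was 0.25 for guanine, 0.12 for adenine and -0.04 for thymine among the long leaders. All points come from the same libraries, the shares of the 4 bases depend on one another, and no test was made. For 80S against untranslated the relation was closest at the 5′ end. With the leader divided into 3 equal stretches, r was -0.51 for cytosine in the 5′ stretch, -0.18 in the middle one and -0.06 in the 3′ one. For 80S against input no such preference was clear, with r of -0.28, -0.28 and -0.20 in the 3 stretches and -0.42 over the whole leader. For untranslated against input r was 0.31, -0.07 and -0.12 in the 3 stretches and 0.05 over the whole leader.
For the first 30 nt it was -0.48 for 80S against untranslated, -0.26 for 80S against input and 0.30 for untranslated against input, and for the last 30 nt before the start codon it was -0.07, -0.19 and -0.11 in the same order. The first 30 nt gave -0.25, -0.24 and -0.27 for the ratio of 80S replicates 1, 2 and 3 to the input, and 0.31 and 0.29 for that of untranslated replicates 1 and 2, so each library had the sign of its group. The next class, from 90 nt up, gave -0.47 for the first 30 nt and -0.13 for the last 30.

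Counted in cytosines, 13 long leaders had 0 to 2 in their first 30 nt, of which 9 rose and 0 fell in 80S against untranslated, with a median log2 difference of 0.94. With 3 to 4 cytosines, 39 of 75 rose and 16 fell (median 0.67). With 5 to 6, 28 of 95 rose and 35 fell (median -0.20). With 7 to 12, 8 of 69 rose and 45 fell (median -1.04). The share that rose thus went down from 69.2 to 52.0, 29.5 and 11.6%, and the share that fell went up from 0 to 21.3, 36.8 and 65.2%. The leaders of the next class, from 90 nt up, of which 462 have a sequence, gave a like order, with rises in 72.9, 52.0, 31.8 and 9.57% and falls in 10.4, 20.9, 41.7 and 63.5% (at 0 to 2, 3 to 4, 5 to 6 and 7 or more cytosines).
The exceptions were not rare. ASM4, with 4 cytosines in its first 30 bases, was among the largest falls, as was YHR020W with 3. By the whole leader, the highest share, 35.7%, belonged to SED5_115, which had 365, 318 and 290 FPKM in 80S, against 1572 and 1630 FPKM in untranslated and 2132 FPKM in the input. The lowest, 8.26%, belonged to UBC8, which rose against the input in both fractions and had a log2 difference of -0.47 in 80S against untranslated that was not called.

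A run of 3 cytosines (CCC on the strand of the RNA, overlapping runs counted once per leader) was present in 49 of the 96 leaders that fell and 17 of the 84 that rose, and in 95 of the 252 (37.7%), against 15.7% of all leaders with a sequence, most of which are shorter. The computed folding energy of the leader alone was not scaled to its length. Its median was -14.8 kcal/mol, against -3.1 kcal/mol over all leaders, most of which are shorter. Among the long leaders this energy followed the difference weakly (r = -0.16). From the most to the least stable folds, in 4 groups of 63, the median log2 difference was 0.16, -0.29, 0.01 and -0.61, so it followed no steady order. In the most stable folds 20 rose and 19 fell, and in the least stable 18 rose and 31 fell. These groups also differed in a median guanine share of 20.2% in the most stable and 11.8% in the least stable folds, in a median cytosine share of 16.5 and 19.1%, and in the share of leaders with an upstream ATG, 38.1 and 6.35%. The separate parts of these features were not tested.

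The 168 genes with a shorter leader allowed a comparison within a gene. The difference between the long leader and the shortest one was formed in each library and contrasted between 80S and untranslated with limma over the 2828 such pairs of the pool. The 2 leaders of a pair were 11 to 98 nt apart (median 41). The long leader was relatively higher in 80S for 55 genes and lower for 61, so 69.0% were called, against 68.3% of all pairs (33.8% higher and 34.4% lower), by limma with Benjamini-Hochberg adjustment at 0.05. The median log2 difference was -0.22 for these 168 pairs and -0.04 for all pairs. These calls set 80S against untranslated and do not show a gain or loss against the input. Formed against the input, the median pair difference was 0.26 for 80S and 0.29 for untranslated (0.13 and 0.15 for all pairs). In 27 of the 116 called pairs the difference of 80S against input had the opposite sign, as in 490 of 1931 over all pairs. At least 4-fold differences were called for 20 pairs (11.9%) in the higher direction and 24 (14.3%) in the lower, near the 11.3% and 12.2% of all pairs.
No source used here says how reads shared by leaders of the same gene were assigned. By the reference, the longer leader of a pair holds the whole shorter leader, and the part of shared reads in these differences was not tested.

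In 35 genes the 2 leaders were called in opposite directions for 80S against untranslated: the long one rose and the short one fell in 15 (8.93%, against 7.78% of all pairs), and the long one fell and the short one rose in 20 (11.9%, against 8.73%). In 23 both rose (13.7%, against 19.3%) and in 20 both fell (11.9%, against 13.5%). Over the gap between the starts, the median was 0.18 at 11 to 20 nt (15 higher, 10 lower of 33), 0.25 at 21 to 40 nt (19 higher, 17 lower of 49), -0.30 at 41 to 60 nt (9 higher, 14 lower of 35) and -0.46 at 61 to 98 nt (12 higher, 20 lower of 51). Counts of all pairs in these gap classes are not given here, and the gap followed the pair difference weakly (Pearson's r = -0.10, 164 pairs). Genes with only the long leader had 33 rises and 35 falls among 92. Their median was -0.17, close to the -0.19 of those with a shorter leader too.

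DEF1 had the pair with the largest fall. Its 110 nt leader had 853, 673 and 597 FPKM in 80S, against 7260 and 9265 FPKM in untranslated, while its 73 nt leader had 2330, 2287 and 1748 FPKM in 80S, against 598 and 936 FPKM in untranslated. The fractions were thus reversed between the leaders, by a log2 difference of -5.04 ± 0.21 (SE), or 32.9-fold (adjusted p = 8.96e-06, limma with Benjamini-Hochberg adjustment). Another DEF1 leader of 97 nt had 400, 289 and 283 FPKM in 80S, against 2709 and 2815 FPKM in untranslated. It resembled the longest one, and against it the difference of the 110 nt leader was only -0.44 and was not called (adjusted p = 0.0826, limma with Benjamini-Hochberg adjustment).
HOM3 was arranged alike. Its 110 nt leader had 1748, 2066 and 1827 FPKM in 80S, against 5125 and 6631 FPKM in untranslated, its 76 nt leader 1188, 1047 and 1126 FPKM in 80S, against 2944 and 3978 FPKM in untranslated, and its 64 nt leader 2963, 3221 and 3098 FPKM in 80S, against 1012 and 1030 FPKM in untranslated. The 2 longer leaders differed by -0.02, and the shortest stood apart from both (-3.23 between 110 and 64 nt).

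EMI2, a putative glucokinase gene, had 2051, 2330 and 2316 FPKM in 80S, against 2999 and 3354 FPKM in untranslated, for its 112 nt leader. Its 52 nt leader had 4053, 3613 and 4451 FPKM in 80S, against 415 and 397 FPKM in untranslated, which gave a pair difference of -3.81. MET14_105, of the adenylyl-sulfate kinase gene, had 918, 502 and 720 FPKM in 80S, against 3713 and 4137 FPKM in untranslated.
MET14_44 had 3206, 2983 and 3137 FPKM in 80S, against 891 and 837 FPKM in untranslated, so its fractions were reversed too (-4.35). The same reversal was seen in YHR020W_108 against YHR020W_37 (-4.75) and MET2_110 against MET2_18. Leaders of intermediate length did not follow one order. YHR020W_85 had a log2 difference of 0.00 (not called) and YHR020W_73 one of -1.85, MET2_95 had one of 0.56 (not called), and CDC73_60 fell (-0.58). The pair difference of MET2 was -3.72, and it was -4.31 without untranslated replicate 1 and -3.13 without untranslated replicate 2. In CCC2_109 against CCC2_87 (-3.25) and CDC73_105 against CDC73_24 (-3.13) the shorter leader was called in neither direction.

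In the opposite direction, FPT1, a regulator of RNA polymerase III, had 2036, 2114 and 1950 FPKM in 80S, against 1084 and 1476 FPKM in untranslated, for its 108 nt leader. Its 92 nt leader, which lacks the 16 bases shown above, had 847, 687 and 679 FPKM in 80S, against 10416 and 12474 FPKM in untranslated. The long leader rose, though it was not called without 80S replicate 1, 80S replicate 2 or untranslated replicate 1, and the short one fell, with a pair difference of 4.64 ± 0.21 (SE), or 24.9-fold (adjusted p = 8.96e-06, limma with Benjamini-Hochberg adjustment). The first 30 bases hold 5 cytosines in the long leader and 8 in the short one.
CUS2, a splicing factor of the U2 snRNP, had 12055, 14952 and 10766 FPKM in 80S, against 7700 and 11276 FPKM in untranslated, for its 106 nt leader. Its 92 nt leader had 976, 2037 and 932 FPKM in 80S, against 16334 and 27267 FPKM in untranslated. The fractions of the long leader overlapped and it was not called on its own (0.42), while the shorter leader fell (-4.10), and the pair difference was 4.52. Both leaders hold 6 cytosines in their first 30 bases.

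SHC1, of chitin synthesis in spores, had 25387, 26472 and 27249 FPKM in 80S, against 9200 and 9725 FPKM in untranslated, for its 111 nt leader. Its 99 nt leader had 1069, 772 and 1190 FPKM in 80S, against 5691 and 2001 FPKM in untranslated. The inputs were nearly equal, at 13302 FPKM for the long and 11898 FPKM for the short leader. The pair difference of 3.24 was 2.45 without untranslated replicate 1 and 4.03 without untranslated replicate 2.
AIM4 had a graded set of 3 leaders. The 109 nt leader had 7557, 9967 and 8355 FPKM in 80S, against 3041 and 5253 FPKM in untranslated, the 81 nt leader 2352, 1896 and 2644 FPKM in 80S, against 8453 and 6763 FPKM in untranslated, and the 69 nt leader 629, 627 and 638 FPKM in 80S, against 4640 and 4209 FPKM in untranslated. Their own log2 differences were 1.10, -1.73 and -2.81, and the first 30 bases hold 2 cytosines in the 109 nt and 9 in the 69 nt leader. The mitochondrial iron carrier gene MRS3 (MRS3_109 against MRS3_77, 4.57), YOR342C_113 against YOR342C_37 (4.37), PAU5_115 against PAU5_32 (3.56) and IMD2, an IMP dehydrogenase gene (IMD2_106 against IMD2_34, 3.44), also had a long leader that rose and a short one that fell, except that the rise of IMD2_106 was not called without untranslated replicate 1. YOR342C_102, only 11 nt shorter than YOR342C_113, fell as well (-3.14).

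Across the 146 pairs whose shorter leader had at least 30 nt, the cytosines in the first 30 bases of the long leader minus those of the short one followed the pair difference with Pearson's r = -0.47 and Spearman's rho = -0.46. For the gap between the starts r was -0.10 over the 164 pairs with both sequences. Of the 8 highest pair differences, the long leader held fewer cytosines in its first 30 bases in 6 and as many in 2 (CUS2 and YOR342C). Of the 6 of the 8 lowest whose shorter leader had at least 30 nt, it held more in 3 (DEF1, MET14 and EMI2), as many in 2 (YHR020W and CCC2) and fewer in 1 (HOM3). As before, the pairs share the libraries, and the correlations are given as descriptions.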

How the data were processed

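Each library came from the pool of capped leader RNAs, grouped by fraction as labelled. Leaders of 105 to 115 nt were kept as members. The deposited values are FPKM, 1 per RNA and library, per the file headers. The submitters' processing notes name cutadapt and STAR. What computed FPKM, on which build, and how shared reads were treated is not given in the sources used here. Of the input values under 10 steps of the lowest value, 56.8% were whole multiples of it (within 0.01 step), so reads were not recovered and depth is unknown.

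Values were analysed as log2(FPKM + 1) with limma 3.58.1 in R 4.3.3 on all 6962 RNAs and 6 libraries, with 1 mean per group, a mean-variance trend and Benjamini-Hochberg adjustment at 0.05. The single input was assumed to vary like the fractions. A filter at a mean FPKM of 10 removed 0 RNAs. Fold changes on this scale understate those of low RNAs. Pairs were fitted likewise on within-library differences. An exact permutation test of 3 against 2 libraries cannot give a two-sided p under 0.1, so none was used. The scripts were tested on simulated data. Leaders were read from R64 without introns, with 1-based coordinates, Python 3.11.15 (numpy 2.4.6, pandas 2.3.3), and folded with ViennaRNA 2.7.2.

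The members, the gene lists and the rule for named leaders were chosen with earlier results of these data known. The rule named the 12 largest rises and falls for 80S against untranslated whose libraries did not overlap, 5 and 5 for each contrast with the input, 8 and 8 pairs, the 3 highest and 3 lowest inputs, the 3 smallest changes, list extremes, all genes with reported upstream frames and the extremes at 105 and 104 nt. SED5 and UBC8 were also named for their cytosine share. GCN3, TIF5, MET13, UBI4, ARO10, GLC3, TPS1, IMD3 and the members of the mitochondrial list were added after their values were seen. Alternatives comprised a replicate block, rescaling by median ratios, pseudocounts of 10 and 100, no filter or one at 500 FPKM, no trend, leaving the input out of the fit, a wider length window, other choices of the shorter leader and leaving out each library. A minimum of 10 input steps was added after the data were seen.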

Additional observations from a re-analysis of the deposited data

How the results depend on the processing

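Of 118 counts of called leaders and pairs over all settings, 112 stayed within 1.5 times the reported count. With a window that begins at 100 nt, which holds more leaders, 136 rose and 155 fell for 80S against untranslated, 114 fell for 80S against input, and 109 rose and 96 fell for untranslated against input. Shares of the wider window are not given here, so its counts do not show whether the share called changed. After rescaling by median ratios, 35 instead of 62 leaders fell for untranslated against input. Leaving out 1 library at a time gave 81 to 89 rises and 88 to 101 falls for 80S against untranslated, 45 to 78 and 64 to 91 for 80S against input, 61 to 77 and 46 to 70 for untranslated against input, and 50 to 60 and 55 to 65 for the pairs. These are net counts. For 80S against untranslated, 15, 14 and 17 leaders lost their call without 80S replicates 1, 2 and 3. Another 13 did so without untranslated replicate 1, and 13 without untranslated replicate 2, with some leaders counted more than once.

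Of 1102 values from 80 results for single leaders and pairs, 1077 kept their direction and their side of the threshold. Those near 0 changed sign: GPT2 was -0.13 after rescaling, -0.076 with a replicate block and between -0.19 and 0.22 with single libraries left out. PAH1 was -0.10 after rescaling and between -0.092 and 0.13 with single libraries left out, and SER1 -0.10 after rescaling and between -0.071 and 0.16 with single libraries left out. SLX8 ran between -0.79 and 0.18 and GPC1 between -1.44 and 0.20 with single libraries left out, both ends set by leaving out 1 untranslated library, and the cause was not tested. Against the nearest shorter leader, DEF1 and HOM3 gave the values -0.44 and -0.02. The 1102 values do not hold every contrast of every named leader. Those of SOD2_105, FPT1_108 and IMD2_106 for 80S against untranslated, whose calls were lost without single libraries, are not among them.

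The replicate numbers do not establish a pairing: deviations of same-numbered libraries had r = 0.086 and 0.53 over 2 pairs. With a replicate block, 89 leaders rose and 101 fell for 80S against untranslated, 55 and 70 for 80S against input, 65 and 64 for untranslated against input, and 55 and 61 pairs were higher and lower. The unknown depth limits leaders of low input, of which 8 had under 10 steps.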
